A study of Mus musculus with 17 samples.

Results

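The genes described here are those of the enzymatic antioxidant system: glutathione peroxidases, glutathione transferases of the soluble and membrane kinds, peroxiredoxins, superoxide dismutases and catalase, the enzymes that make and recycle glutathione, the thioredoxin system, the NRF2 protein with its inhibitor KEAP1, NRF2-driven enzymes, and 2 enzymes that supply NADPH. Members were chosen by gene symbol, leaving out symbols marked as pseudogenes (-ps) or unnamed clones (Rik), and came to 60 of the 35674 symbols in the deposited tables. Prdx2-rs3, which stayed among them, is annotated as a processed pseudogene. Glutathione and thioredoxin are small reductants that are spent in destroying peroxides and reactive electrophiles and are restored with electrons from NADPH. NRF2, encoded by Nfe2l2, is a transcription factor that KEAP1 marks for degradation until oxidants or electrophiles modify KEAP1, and it then switches on many of these enzymes through antioxidant response elements (AREs) in their promoters. In skin the system is known for protecting keratinocytes from sunlight, pollutants and the oxidants of their own metabolism.

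The mRNA of stem cells of WT mouse skin, isolated by flow cytometry, was measured in 17 libraries. Hair follicle stem cells (HFSCs) are the slowly cycling cells of the follicle bulge, and epidermal stem cells (EpiSCs) renew the epidermis between follicles. HFSCs came from the 2nd telogen, a resting phase of the hair cycle (2 libraries, treatment label control). EpiSCs came from ad libitum-fed animals (2 libraries). For the short fasts there were HFSCs of fed animals and of animals without food for 24 or 48 h (3 libraries per group). In the long-term experiment, HFSCs were taken after 6 months of alternate-day fasting (ADF), on the day that followed a fast, or after 6 months of ad libitum feeding (2 libraries per group). The treatment label of the ADF libraries reads ad libitum, and their titles were followed. The sources used here give no age, strain, sex or sorting marker, and they do not say whether each library came from 1 mouse or from pooled mice, and the p-values below therefore measure only library-to-library spread, which may be technical. The labels name no hair cycle stage for HFSCs of the short experiment, but in the telogen table the columns of the ad libitum libraries carry the prefix ana1, whose meaning no source used here gives. Values are TPM, each transcript's length-corrected share of a library scaled to a total of 1000000, so levels can be compared between genes.

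All 10 HFSC markers averaged at least 1 TPM in each of the 6 HFSC groups, whereas in EpiSCs 5 of the 10 did, with Lgr5 and Tbx1 listed at 0. The summed HFSC markers, mostly Krt15, were 34182 to 34848 TPM in EpiSCs. That lay between 24 h fasted HFSCs (19208 to 32420 TPM) and ad libitum HFSCs (37588 to 40826 TPM). Krt15 averaged 34153 TPM in EpiSCs and 38033 TPM in ad libitum HFSCs, and Itga6 was higher in EpiSCs (326 against 27.6 TPM). Summed markers of the interfollicular and upper follicle epithelium lay between 11475 and 12275 TPM in EpiSCs, against 390.2 to 577 TPM in ad libitum HFSCs. Within that list Defb6 went the other way (12.2 against 24.04 TPM on average), and Gata6 stayed under 1 TPM in both. Transcripts encoded by the mitochondrial genome took 3.46 ± 0.0531% of the TPM in 2nd-telogen HFSCs and 3.22 ± 0.526% in EpiSCs, against 30.7 ± 4.56% in ad libitum HFSCs, and they took 27.5 ± 8.73% after 24 h and 10.02 ± 2.88% after 48 h of fasting. Because TPM are shares of a total, the comparisons with calls were repeated with libraries put on a common scale by the median ratio of all genes, and members that gained or lost a call there are named. In sorted bulk samples, fewer cells of a type and less RNA per cell cannot be told apart. The 24 h, 48 h, EpiSC and telogen comparisons all use ad libitum HFSC libraries, so their results are not independent of each other.

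Averaged over the 17 libraries, 15 members lay at 100 TPM or above, 25 between 10 and 100 TPM, 10 between 1 and 10 TPM, and 5 below 1 TPM (Gsta3, Gsta4, Gstm3, Gstp3 and Sod3). The other 5 (Gpx5, Gpx6, Gstt4, Prdx2-rs3 and Prdx6b) were listed at 0 in every library. These 10 entered no test, except Gsta4 and Sod3 in the long-term comparison; in addition Gpx7 entered neither the fasting nor the telogen tests, and Gpx3, Gsta2 and Gsta1 stayed out of the EpiSC, telogen and long-term tests in that order, all for a mean under 1 TPM. Gpx1, a glutathione peroxidase of the cytosol that reduces hydrogen peroxide, was the leading member with a mean of 1743 TPM. The leaders of the other families were Sod1 (684 TPM), the copper and zinc superoxide dismutase, Prdx1 (656 TPM), a cytosolic peroxiredoxin, Gsto1 (345 TPM), an omega-class glutathione transferase, Txn1 (292 TPM), cytosolic thioredoxin, and Mgst1 (103 TPM), a transferase of intracellular membranes. Of the NADPH-supplying enzymes Pgd averaged 25.8 TPM.

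**Figure D1:**
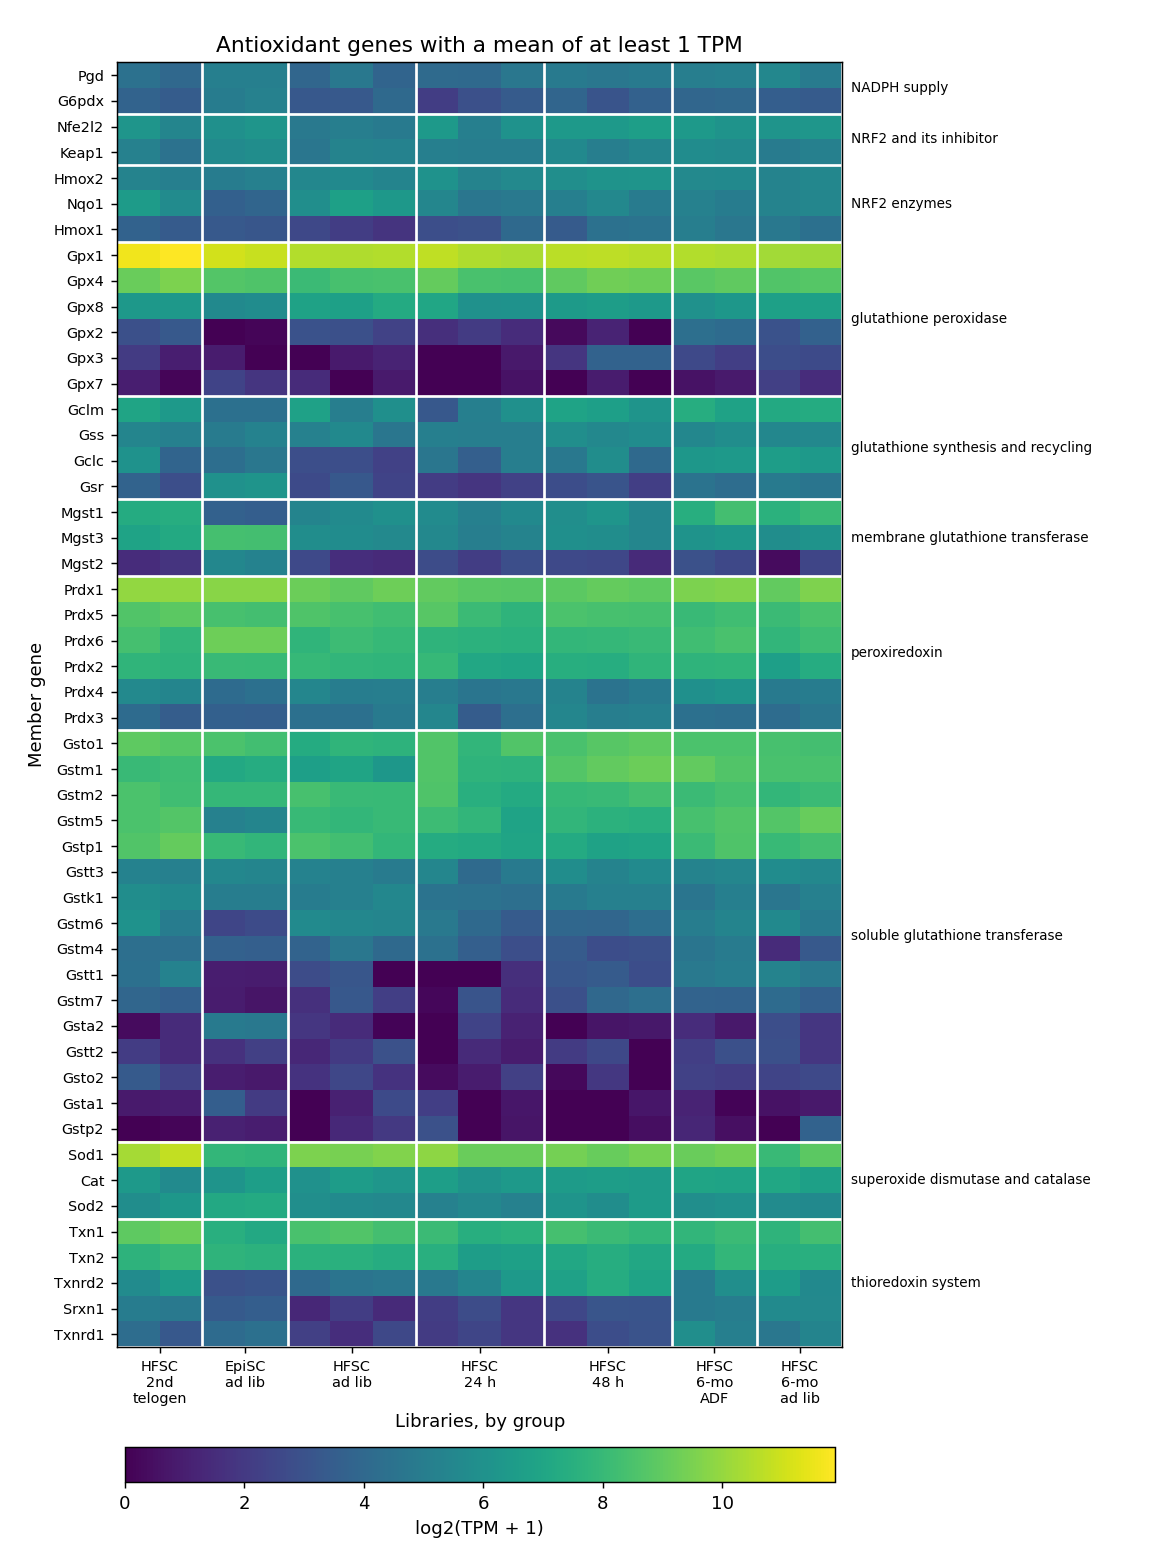
Level of each member with a mean of at least 1 TPM (rows, grouped by family) in each of the 17 libraries (columns, grouped by sample group), as colour on a log2(TPM + 1) scale. Gpx1 is the brightest row, brightest of all in the 2 telogen libraries, and Gstm5, Mgst1 and Nqo1 darken in the EpiSC columns while Mgst2, Mgst3, Gsta2 and Gsr brighten there.

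Summed over the members as deposited, the level was 11567 ± 921 TPM in 2nd-telogen HFSCs and 7304 ± 249.7 TPM in EpiSCs, against 6507 ± 85.01 TPM in ad libitum HFSCs (SD, n = 2, 2 and 3). After fasting it was 6084 ± 1340.05 TPM at 24 h and 7249 ± 134 TPM at 48 h (SD, n = 3 each). In the long-term experiment it was 7915 ± 387 TPM in ADF HFSCs and 7016 ± 757 TPM in their ad libitum counterparts (SD, n = 2 each). With mitochondrially encoded genes left out and the rest rescaled to the same total, the sums were 11981 ± 948 TPM in telogen HFSCs and 7548 ± 299 TPM in EpiSCs, against 9412 ± 635 TPM in ad libitum HFSCs. The EpiSC sum, which was the higher one as deposited, was then the lower one, and the gap between telogen and ad libitum HFSCs shrank. The sums of fasted HFSCs were then 8344 ± 1045 TPM at 24 h and 8059 ± 162 TPM at 48 h. As deposited, the telogen libraries stood above all others, and their glutathione peroxidases alone summed to 4214 ± 534 TPM, against 1897 ± 68.6 TPM in ad libitum HFSCs. The 24 h libraries were uneven: library 1 had a sum of 7631 TPM, while libraries 2 and 3 had 5298 and 5322 TPM.

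**Figure D2:**
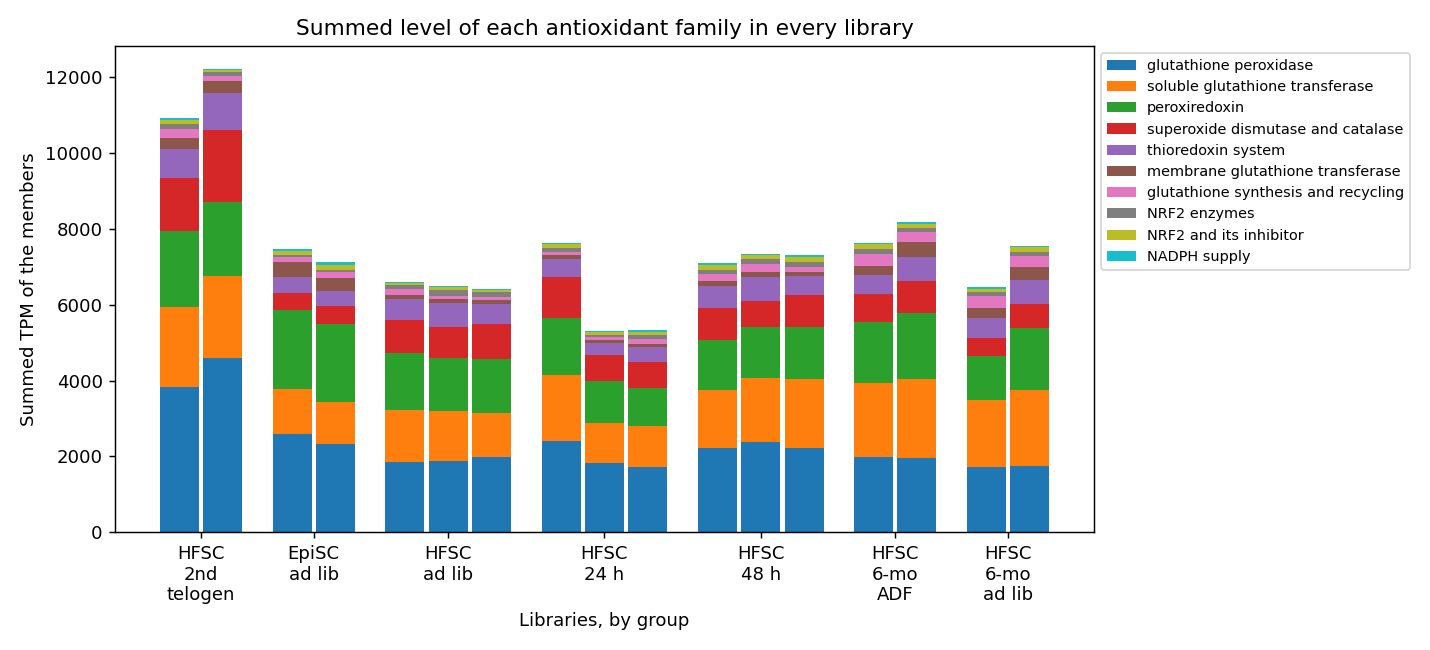
Summed TPM of the members in each library (1 bar per library, grouped by sample group), split by family. The 2 bars of 2nd-telogen HFSCs reach 10916 and 12219 TPM, above the 15 other libraries, and the first of the 24 h bars stands apart from its 2 fellows.

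Promoter windows from 250 bases before to 50 bases after the RefSeq start site were found for 51 of the 60 members. The ARE core, searched as TGACNNNGC on both strands, occurred in 12 of them (23.53%), against 13.99% of 27025 genes: G6pdx, Gclm, Gsta3, Gstm5, Gstm7, Mgst1, Nfe2l2, Pgd, Prdx1, Sod1, Srxn1 and Txnrd1. The forkhead motif TGTTTAC, also searched on both strands, occurred in 0 of the 51 windows, against 4.05% of genes. A match describes letters and is not a binding site, and the windows say nothing of more distant elements. No window was found for Gclc, Gsr, Gsta4, Gstt2, Hmox1, Prdx2-rs3, Prdx6, Prdx6b and Sod3. The windows of 5 members that the results below turn on are printed (RefSeq, GRCm38.p6, 5′ to 3′ on the gene's own strand), with the ARE core in capitals where there is one: Nfe2l2 (chr2:75704614-75704913, minus strand), Srxn1 (chr2:152105274-152105573, plus strand) and Mgst1 (chr6:138140277-138140576, plus strand) hold it, and Gstm1 (chr3:108017924-108018223, minus strand) and Nqo1 (chr8:107403156-107403455, minus strand) do not. The first base of the match lies 240 bases before the start site in Nfe2l2, 56 bases before it in Mgst1, and at base 28 after it in Srxn1. The RefSeq start of Mgst1 lies 211 bases from the start of the gene in the GENCODE annotation.
Nfe2l2: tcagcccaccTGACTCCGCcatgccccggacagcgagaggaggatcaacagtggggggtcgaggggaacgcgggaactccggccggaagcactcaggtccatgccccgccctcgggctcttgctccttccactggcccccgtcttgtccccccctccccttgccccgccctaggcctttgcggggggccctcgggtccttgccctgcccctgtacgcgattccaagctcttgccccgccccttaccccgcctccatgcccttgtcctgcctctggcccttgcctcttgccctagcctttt
Srxn1: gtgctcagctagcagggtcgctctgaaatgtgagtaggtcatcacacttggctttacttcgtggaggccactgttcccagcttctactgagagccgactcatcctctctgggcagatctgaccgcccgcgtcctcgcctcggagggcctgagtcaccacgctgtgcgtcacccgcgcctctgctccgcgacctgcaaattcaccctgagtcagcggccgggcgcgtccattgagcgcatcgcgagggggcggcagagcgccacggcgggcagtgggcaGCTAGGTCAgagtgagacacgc
Mgst1: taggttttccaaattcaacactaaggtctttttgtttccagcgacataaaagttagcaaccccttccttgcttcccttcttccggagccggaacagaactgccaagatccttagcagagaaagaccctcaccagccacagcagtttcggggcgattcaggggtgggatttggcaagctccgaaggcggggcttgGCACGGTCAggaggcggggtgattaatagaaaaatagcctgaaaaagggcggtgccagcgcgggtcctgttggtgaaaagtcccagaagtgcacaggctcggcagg
Gstm1: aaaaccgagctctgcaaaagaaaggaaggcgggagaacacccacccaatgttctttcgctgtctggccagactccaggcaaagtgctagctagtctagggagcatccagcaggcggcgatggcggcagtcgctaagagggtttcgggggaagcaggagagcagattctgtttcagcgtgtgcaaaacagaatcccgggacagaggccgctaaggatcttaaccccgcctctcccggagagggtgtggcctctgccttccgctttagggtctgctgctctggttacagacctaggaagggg
Nqo1: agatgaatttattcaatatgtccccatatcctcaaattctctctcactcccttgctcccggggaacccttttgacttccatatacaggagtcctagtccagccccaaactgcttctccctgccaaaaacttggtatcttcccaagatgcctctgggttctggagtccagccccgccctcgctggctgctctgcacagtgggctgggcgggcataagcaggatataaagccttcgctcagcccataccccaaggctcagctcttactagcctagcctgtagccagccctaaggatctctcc

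Short fasting asked how HFSCs of unfed mice differ from those of fed mice. After 48 h of fasting, the mitochondrial thioredoxin reductase Txnrd2, the transferases Gstm1 and Gsto1, the peroxidases Gpx3 and Gpx4, the glutathione-synthesis gene Gclc, Hmox1 and Nfe2l2 itself rose, while Nqo1, Gstp1, Gstm6 and Gpx2 fell. That is 8 members higher and 4 lower of 49 that averaged at least 1 TPM over the libraries of the fit, or 24.5% of them, beside 15.3% of 11533 genes. Gpx3 is counted among the 8 but averaged under 1 TPM in ad libitum and 24 h fasted HFSCs. It passed the filter only through the 48 h libraries and could enter only by being higher there, so nothing is read from its call. Gpx2, counted among the 4, averaged under 1 TPM at 48 h and passed the filter through the other libraries. It could enter only by being lower at 48 h, so nothing is read from its call either. By direction the background was 13.3% of genes higher and 1.98% lower. The median log2 fold change was 0.00 over the members tested and 0.42 over all genes tested; after median-ratio scaling the median over all genes was 0.01, and the members split 7 higher (without Gpx4) and 7 lower (with Gstm4, Gpx8 and Txn1 in addition), beside 5.44% and 4.94% of genes (10.4% in either direction). After 24 h, 2 members were higher (Gstm1 and Gclc) and 3 lower (Gstm6, Nqo1 and Gstp1) of 49, or 10.2%, beside 3.07% of genes (1.47% higher and 1.6% lower), and all 5 were called in the same direction at 48 h. After scaling, 4 were higher at 24 h (with Gsto1 and Nfe2l2) and 3 lower, beside 2.69% and 2.2% of genes (4.9% in either direction). The 2 times share their ad libitum libraries. With genes of any level in the fit, 0 members were called at 24 h, and Gpx3, Gpx4, Hmox1 and Nqo1 lost their 48 h calls (adjusted p from 0.0513 to 0.0776).

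The gene for NRF2 itself was higher in fasted HFSCs. Nfe2l2 (chromosome 2, 75675513 to 75704641, GRCm38) had 26.5, 33.1 and 28.9 TPM in ad libitum HFSCs, 82.9, 33.9 and 65.05 TPM after 24 h and 82.6, 81.3 and 101 TPM after 48 h of fasting. All 48 h libraries lay above all ad libitum libraries, and at 24 h library 2 lay just above the highest ad libitum value while libraries 1 and 3 stood clear of it. The 48 h log2 fold change was 1.55 (SE 0.30, adjusted p = 0.00390; 1.08 after scaling), and the 24 h difference of 0.93 was not called (adjusted p = 0.118), although it was after scaling (adjusted p = 0.0330). Keap1, whose protein holds NRF2 in check, had 24.04, 38.9 and 37.1 TPM in ad libitum HFSCs, 33.6, 32.1 and 32.2 TPM after 24 h and 48.4, 33.1 and 41.7 TPM after 48 h. Its groups overlapped, with a 95% interval of the 48 h log2 fold change from -0.29 to 0.90.

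The 2 enzymes that are commonly read as NRF2 targets moved in opposite directions. Hmox1, the inducible heme oxygenase that breaks down heme, had 4.90, 3.41 and 2.49 TPM in ad libitum HFSCs, 6.24, 6.59 and 15.7 TPM after 24 h and 9.64, 20.9 and 21.7 TPM after 48 h. Every fasted library was above every ad libitum one, and its 48 h log2 fold change was 1.95 (SE 0.46, adjusted p = 0.0105); at 24 h it was 1.11 (adjusted p = 0.219). Nqo1, the quinone reductase, had 57.5, 106 and 78.4 TPM in ad libitum HFSCs, 42.6, 24.3 and 27.2 TPM after 24 h and 33.6, 46.03 and 30.2 TPM after 48 h. All 6 fasted libraries lay below the 3 ad libitum ones. Its log2 fold change was -1.33 at 24 h (SE 0.31, adjusted p = 0.0297) and -1.09 at 48 h (SE 0.31, adjusted p = 0.0266). Single libraries decided these calls: the 48 h call of Hmox1 was lost without ad libitum library 3 (adjusted p = 0.0502) or 48 h library 2 or 3 (0.0623 and 0.0638), and that of Nqo1 without ad libitum library 2 or 3 (0.0837 and 0.0827) or 48 h library 1 or 3 (0.0828 and 0.114). The 24 h call of Nqo1 was lost without ad libitum library 2 or 3 (0.0997 and 0.0910) or 24 h library 2 or 3 (0.0551 and 0.0746). Hmox2, the constitutive heme oxygenase, was not called, with means of 44.7 ± 4.36 TPM in ad libitum HFSCs, 51.02 ± 13.9 TPM at 24 h and 65.3 ± 6.70 TPM at 48 h (SD, n = 3 each).

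Of the 4 genes of glutathione synthesis and recycling, 1 changed with fasting. Gclc, the catalytic subunit of the ligase that performs the rate-limiting step, had 6.12, 6.13 and 3.84 TPM in ad libitum HFSCs, 24.1, 11.2 and 32.7 TPM after 24 h and 26.3, 55.2 and 15.7 TPM after 48 h. The fasted libraries varied widely among themselves but were all above the highest ad libitum value. The log2 fold change was 1.80 at 24 h (SE 0.47, adjusted p = 0.0491) and 2.23 at 48 h (SE 0.47, adjusted p = 0.00549). The 24 h call was lost without any of the ad libitum libraries (adjusted p = 0.129, 0.0814 and 0.152 for libraries 1 to 3), 24 h library 1 or 3 (0.108 and 0.153) or 48 h library 1 (0.0722), whereas the 48 h call held without each library in turn. Gclm, the modifier subunit of the same ligase, scattered within groups, with 109, 33.2 and 58.9 TPM in ad libitum HFSCs, 8.68, 33.5 and 61.3 TPM after 24 h and 117, 102 and 69.9 TPM after 48 h. Neither time was called for Gclm (adjusted p = 0.287 at 24 h and 0.435 at 48 h). Gss, which completes glutathione, and Gsr, which reduces it after use, were not called either, and Gsr stayed between 2.61 and 8.64 TPM in the 9 libraries.

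Among the glutathione peroxidases the abundant Gpx1 was not called, whereas less abundant relatives were. Gpx1 averaged 1439.5 ± 26.6 TPM in ad libitum HFSCs, 1476 ± 218 TPM at 24 h and 1597 ± 59.6 TPM at 48 h (SD, n = 3 each). Its 48 h libraries lay above its ad libitum ones, with a 95% interval of the log2 fold change from -0.27 to 0.57. Gpx4, which reduces lipid hydroperoxides in membranes and guards against ferroptosis, had 274, 344 and 357 TPM in ad libitum HFSCs, 543, 353 and 344 TPM after 24 h and 507, 636 and 586 TPM after 48 h. The 48 h libraries lay above the ad libitum libraries (log2 fold change 0.83, SE 0.23, adjusted p = 0.0239), but the call was lost after scaling (0.35, adjusted p = 0.350). Leaving out ad libitum library 1 or 3 ended it as well (adjusted p = 0.117 and 0.0555), as did leaving out 48 h library 2 or 3 (0.108 and 0.0837), and 38.9% of the 31-base words of Gpx4 transcripts occur in other genes, mostly the pseudogene Gpx4-ps2. Gpx3, the secreted peroxidase, had 0, 0.804 and 1.30 TPM in ad libitum HFSCs, 0, 0 and 0.752 TPM after 24 h and 2.51, 12.4 and 12.1 TPM after 48 h. It was near 0 until 48 h and passed the filter on low values through the 48 h libraries alone. The log2 fold change, 2.41 (SE 0.58, adjusted p = 0.0124) was not called without ad libitum library 1 (adjusted p = 0.0695) or 48 h library 2 or 3 (0.0738 and 0.0703). Gpx2, a peroxidase of epithelia, had 6.85, 6.57 and 4.15 TPM in ad libitum HFSCs, 2.04, 3.12 and 1.84 TPM after 24 h and 0.218, 1.27 and 0 TPM after 48 h. No library of one time overlapped those of another, and the 48 h log2 fold change was -2.26 (SE 0.47, limma adjusted p = 0.00552). Gpx2 averaged under 1 TPM at 48 h and passed the filter through the other libraries. It could enter only by being lower at 48 h, so nothing is read from this call.

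The soluble glutathione transferases, which join glutathione to electrophiles, split by gene. Gstm1, a mu-class enzyme on chromosome 3, showed the clearest rise of the family, with 103, 119.8 and 77.5 TPM in ad libitum HFSCs, 403, 207 and 205 TPM after 24 h and 419, 521 and 597 TPM after 48 h. Every 24 h library lay above every ad libitum one and every 48 h library above every 24 h one. The log2 fold change was 1.38 at 24 h (SE 0.28, adjusted p = 0.0144; lost without ad libitum library 1 or 3, adjusted p = 0.0590 and 0.0736) and 2.35 at 48 h (SE 0.28, adjusted p = 8.92e-05). Of its 31-base words 28.8% occur in other genes, mainly the pseudogene Gstm2-ps1. Gsto1 had 156, 219 and 203 TPM in ad libitum HFSCs, 398, 227 and 401 TPM after 24 h and 358, 446 and 479.8 TPM after 48 h. It was called at 48 h (log2 fold change 1.15, SE 0.25, adjusted p = 0.00702; 0.68 after scaling), and at 24 h only after scaling (adjusted p = 0.0286).

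Gstp1 and Gstm6 went the other way at both times. Gstp1, the pi-class enzyme, had 361, 312 and 229 TPM in ad libitum HFSCs, 156, 146 and 121 TPM after 24 h and 153, 115 and 122 TPM after 48 h. The fasted libraries did not overlap the ad libitum ones and were similar at both times (log2 fold change -1.07, SE 0.23, adjusted p = 0.0215 at 24 h; -1.19, SE 0.23, adjusted p = 0.00378 at 48 h). The 24 h call of Gstp1 was lost without ad libitum library 1 or 2 (adjusted p = 0.124 and 0.0650) or 24 h library 3 (0.0655), and 38.5% of its 31-base words occur in its neighbour Gstp2, which averaged 1.49 ± 1.44 TPM in ad libitum HFSCs (SD, n = 3). Gstm6, another mu-class gene, had 50.6, 44.9 and 40.8 TPM in ad libitum HFSCs, 27.3, 15.8 and 9.70 TPM after 24 h and 14.8, 14.3 and 18.4 TPM after 48 h. Its log2 fold change was -1.43 at 24 h (SE 0.35, adjusted p = 0.0379) and -1.47 at 48 h (SE 0.35, adjusted p = 0.0116). The 48 h call was lost without ad libitum library 1 (adjusted p = 0.0578) or 48 h library 2 (0.0545), and the 24 h call without any 1 library other than 24 h library 1, with adjusted p from 0.0511 to 0.17. Gstm1 and Gstm6, which moved in opposite directions, lie in one cluster with Gstm5 on chromosome 3, between 107895821 and 108017973. Gstm5 itself was not called at either time (adjusted p = 0.593 at 24 h and 0.461 at 48 h).

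**Figure D3:**
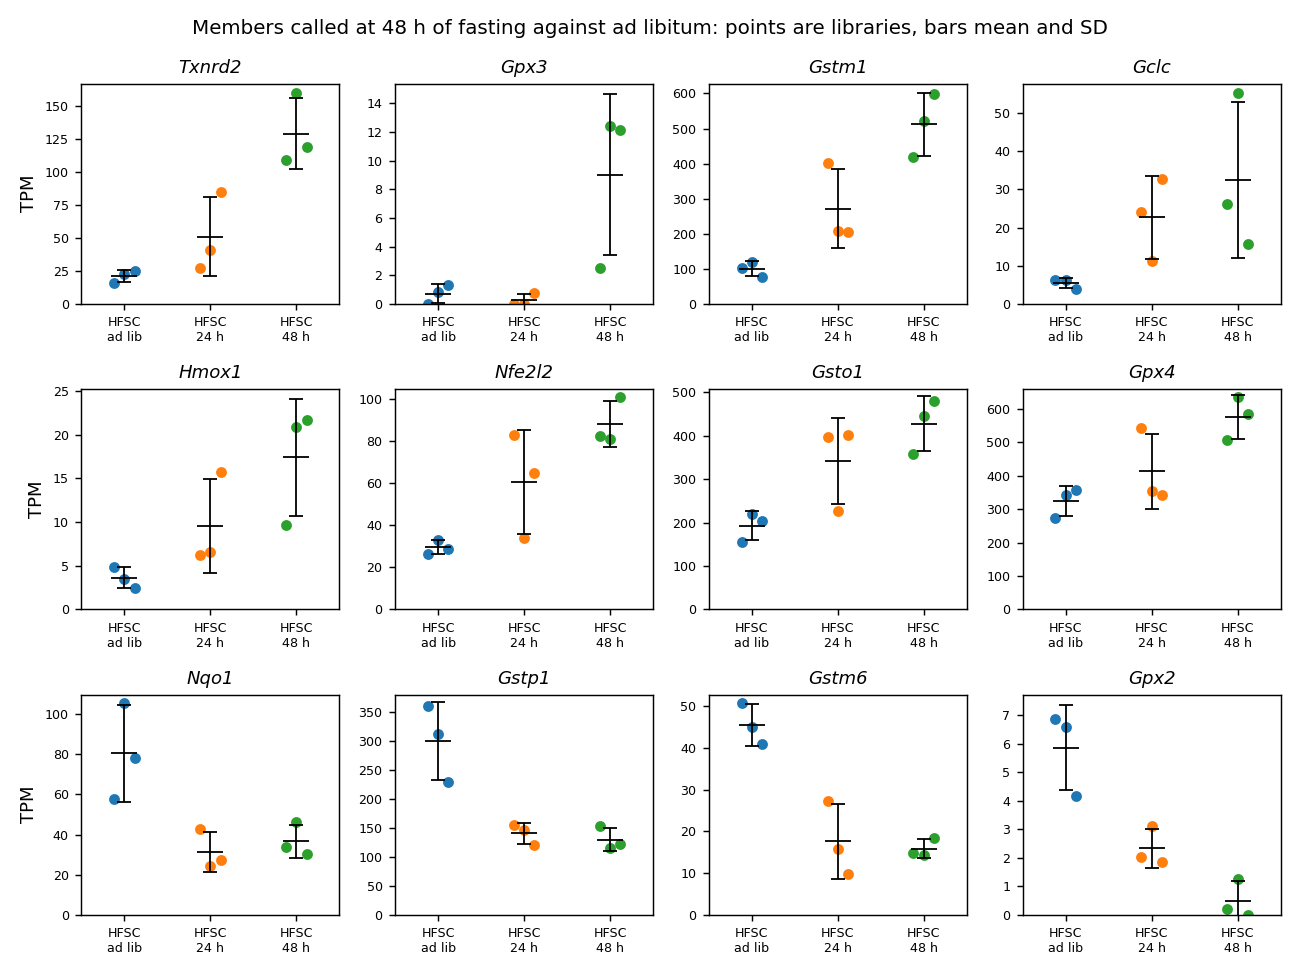
TPM of the 12 members called at 48 h of fasting, in ad libitum, 24 h and 48 h fasted HFSCs. Each point is 1 library and the bars show mean and SD (n = 3). Txnrd2, Gstm1, Gsto1 and Nfe2l2 climb across the 3 times, and Gstp1, Gstm6 and Nqo1 are already low at 24 h.

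In the thioredoxin system the rise was in the mitochondrial reductase. Txnrd2, which keeps mitochondrial thioredoxin reduced, had 15.8, 22.7 and 24.8 TPM in ad libitum HFSCs, 27.3, 40.8 and 84.7 TPM after 24 h and 109, 159.98 and 119 TPM after 48 h. The 3 times did not overlap, and the log2 fold change was 2.56 at 48 h (SE 0.35, adjusted p = 0.000358; 2.09 after scaling), 6.12 times the ad libitum mean in TPM, and 1.10 at 24 h (adjusted p = 0.111). The cytosolic reductase Txnrd1 had 3.79, 1.97 and 4.93 TPM in ad libitum HFSCs, 3.19, 4.54 and 2.72 TPM after 24 h and 2.21, 6.06 and 7.18 TPM after 48 h. Its groups overlapped (adjusted p = 0.631 at 48 h). Txn1, cytosolic thioredoxin, had 354, 406 and 319 TPM in ad libitum HFSCs, 273, 176 and 189.8 TPM after 24 h and 333, 271 and 228 TPM after 48 h. It was not called (adjusted p = 0.0889 at 24 h and 0.274 at 48 h), except at 48 h after scaling (log2 fold change -0.86, adjusted p = 0.0249). Txn2, its mitochondrial counterpart, and Srxn1, the sulfiredoxin that repairs overoxidised peroxiredoxins, were not called either; Srxn1 had 1.49, 3.50 and 1.63 TPM in ad libitum HFSCs and 4.83, 7.76 and 7.51 TPM after 48 h, which did not overlap but gave an adjusted p of 0.0652.

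None of the 6 peroxiredoxins, the 2 dismutases and catalase, the 3 membrane transferases or the 2 NADPH enzymes that entered the fit was called at either time by limma. At an unadjusted p under 0.05, 14 of the 49 members (28.6%) passed at 24 h, beside 17.1% of all genes tested, and 14 passed at 48 h, beside 31.1%. Prdx1 averaged 568 ± 59.7 TPM in ad libitum HFSCs, 475 ± 43.5 TPM at 24 h and 500.3 ± 34.7 TPM at 48 h, and Sod1 averaged 739 ± 57.2, 692 ± 212 and 633 ± 70.6 TPM at the same times (SD, n = 3 each). The 95% intervals of their 48 h log2 fold changes ran from -0.59 to 0.23 for Prdx1 and from -0.71 to 0.25 for Sod1. Catalase, which destroys hydrogen peroxide in peroxisomes, averaged 77.4 ± 14.3 TPM in ad libitum HFSCs, 83.9 ± 16.9 TPM at 24 h and 92.4 ± 4.42 TPM at 48 h (SD, n = 3 each). Comparing the 2 fasted times directly, 0 of 49 members were called at 48 h against 24 h, beside 0.0434% of genes (0.026% higher and 0.0173% lower), and 12 members (24.5%) had an unadjusted p under 0.05, beside 21.3% of genes. The widest of these gaps were those of Gpx3 (log2 fold change 2.82) and Gstt1, a theta-class transferase (2.62). Gstt1 had 8.37, 9.72 and 5.95 TPM after 48 h against 0, 0 and 1.99 TPM after 24 h. Gpx3 passed the filter only through the 48 h libraries. Gstt1 averaged under 1 TPM at 24 h and passed it through the other libraries, so nothing is read from either gap. Txnrd2 had a log2 fold change of 1.46 (adjusted p = 0.106) in the same comparison. Without 24 h library 3, Gclm and Txnrd2 were called higher at 48 h, as were Gpx3 and Gstt1, from which nothing is read. Without 24 h library 1, Gstm1 was called higher. Over all genes, 5 were called in the main fit and 0 to 345 in the fits that left out 1 library.

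Of the genes that work beside the members, a minority was called. The counts stand beside 13.3% of all genes higher and 1.98% lower at 48 h, and 1.47% and 1.6% at 24 h. No list is read as changed as a whole. Of 20 thioredoxin and glutaredoxin partners, 2 were higher at 48 h: Txnip, whose protein binds and inhibits thioredoxin, with 2052 ± 301 TPM in 48 h fasted HFSCs and 209 ± 129.97 TPM in ad libitum HFSCs (log2 fold change 3.46, adjusted p = 5.22e-05), and Sesn1, a sestrin, with a log2 fold change of 1.59. At 24 h, Txnip was the 1 partner that rose (3.24) and Pdia6 and Glrx5 were the 2 that fell (-1.09 and -1.06). Of 15 tested genes of cystine supply and glutathione breakdown, 3 rose at 48 h: Dpep1, a dipeptidase that acts on a glutathione breakdown product (4.23), Cth, which makes cysteine (2.83), and Slc3a2, the shared heavy chain of amino acid transporters (1.71). Dpep1 and Slc3a2 had also risen at 24 h (3.53 and 1.17). Of 18 regulators and partners of NRF2, 3 rose at 48 h, namely the small Maf proteins Maff (2.96) and Mafk (2.53), which pair with NRF2 on DNA, and Sqstm1 (1.39), which binds KEAP1; at 24 h Maff alone did (2.08). Of 21 other known NRF2 targets, Ftl1, a ferritin chain, rose at 48 h (0.99; 0.51 and not called after scaling, adjusted p = 0.279) and Taldo1, a pentose phosphate enzyme, fell at both times (-0.90 at 24 h and -0.93 at 48 h). The other 19 did not pass at either time. The median 48 h log2 fold changes were 0.26, 0.67, 0.81 and 0.18 for these 4 lists in turn, beside 0.42 over all genes.

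The EpiSC comparison asked how the 2 stem cell types of fed mice differ. Of 49 members tested, 16 were higher and 13 lower in EpiSCs than in HFSCs, or 59.2%, beside 40.6% of 11774 genes (31.5% higher and 9.1% lower). The median log2 fold change was 0.12 over the members and 0.50 over all genes. After median-ratio scaling, which brought the median of all genes to 0.05, the split was 11 higher and 17 lower (Gstm4, Gsto2, Gstp1 and Hmox2 in addition), beside 17.7% and 14.7% of genes (32.4% in either direction). The 2 cell types used different members of the same families: EpiSCs had more Gsr, Mgst2, Mgst3, Gsta2, Txnrd1, Prdx6 and Sod2, and HFSCs had more Nqo1, Mgst1, Gstm5, Gstm6, Sod1 and Txn1. Gpx2 and Gstm7 averaged under 1 TPM in EpiSCs and passed the filter only through HFSC libraries, so they could enter only by differing; leaving them aside, 11 members were lower. When 1 of the 2 EpiSC libraries is left out, the other is assumed to vary like the HFSC libraries. Many of the 29 calls were lost in such fits. Gsr, Gstm5, Gstm6, Mgst1, Mgst2, Mgst3, Nqo1, Prdx6, Sod1, Sod2 and Txn1 kept theirs without each library in turn. So did Gpx2, from which nothing is read. Leaving out ad libitum HFSC library 1, 2 or 3 lost 2 calls (Gstm1 and Pgd), 1 call (Gstm7) and 5 calls (Gclm, Gstm1, Gstm7, Pgd and Prdx3). The same 5 were lost with genes of any level in the fit.

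Among regulators and NRF2-driven enzymes, Nfe2l2 and Nqo1 differed in opposite directions. Nfe2l2 had 61.9 and 73.1 TPM in EpiSCs, against 26.5, 33.1 and 28.9 TPM in HFSCs, the log2 fold change being 1.17 (SE 0.22, adjusted p = 0.00449) that was lost without EpiSC library 1 or 2 (adjusted p = 0.0605 and 0.0947). Nqo1 had 11.5 and 13.7 TPM in EpiSCs, against 57.5, 106 and 78.4 TPM in HFSCs (log2 fold change -2.55, SE 0.29, adjusted p = 0.000371). Both genes separated the cell types without overlap. Keap1 had 51.05 and 56.3 TPM in EpiSCs and 24.04, 38.9 and 37.1 TPM in HFSCs, with an adjusted p of 0.0662, and Hmox1 had 8.97 and 8.13 and 4.90, 3.41 and 2.49 TPM in the same order, with 0.0556.

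Glutathione recycling stood out on the EpiSC side. Gsr, glutathione reductase, had 64.2 and 69.99 TPM in EpiSCs, against 5.42, 8.64 and 4.16 TPM in HFSCs. The EpiSC mean was 11.1 times that of HFSCs (log2 fold change 3.32, SE 0.34, adjusted p = 0.000222). The ligase subunits parted: Gclc had 18.9 and 25.4 TPM in EpiSCs and 6.12, 6.13 and 3.84 TPM in HFSCs (log2 fold change 1.87, adjusted p = 0.00449), while Gclm had 20.1 and 19.8 TPM in EpiSCs and 109, 33.2 and 58.9 TPM in HFSCs (log2 fold change -1.54, adjusted p = 0.0225). Both ligase calls were lost without either EpiSC library, with adjusted p of 0.0691 and 0.110 for Gclc and 0.178 and 0.162 for Gclm; that of Gclm was lost without HFSC library 3 too (0.0742). The NADPH-making G6pdx and Pgd were both higher in EpiSCs, by log2 fold changes of 1.57 and 0.97, and Pgd was not called after scaling (adjusted p = 0.181).

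The transferases gave the largest differences in both directions. Mgst2 had 44.2 and 36.9 TPM in EpiSCs, against 5.22, 1.98 and 1.64 TPM in HFSCs (log2 fold change 3.50, SE 0.44, adjusted p = 0.000628). Mgst3 had 326 and 319.7 TPM in EpiSCs, against 56.2, 53.96 and 46.7 TPM in HFSCs (log2 fold change 2.61, SE 0.17, adjusted p = 2.67e-05). Mgst1, the third membrane transferase, was the reverse, with 11.7 and 10.6 TPM in EpiSCs, against 40.4, 50.8 and 60.8 TPM in HFSCs (log2 fold change -2.07, SE 0.27, adjusted p = 0.000671). All 3 genes separated the libraries of the 2 cell types completely. Gsta2, an alpha-class enzyme, had 28.6 and 26.3 TPM in EpiSCs, against 2.67, 1.74 and 0.0905 TPM in HFSCs (log2 fold change 3.68, adjusted p = 0.00129; 0.0532 without EpiSC library 1). Of its 31-base words 60.7% occur in other genes, mostly Gsta1, so the share of each is uncertain. The mu-class genes were the other pole. Gstm5 had 36.1 and 41.2 TPM in EpiSCs, against 252, 235 and 256 TPM in HFSCs (log2 fold change -2.65, SE 0.17, adjusted p = 1.97e-05). Gstm6 had 4.64 and 5.48 TPM in EpiSCs, against 50.6, 44.9 and 40.8 TPM in HFSCs (log2 fold change -2.94, SE 0.27, adjusted p = 0.000123). Gstm7 was lower in EpiSCs as well (-1.59), while Gstm1 and Gsto1 were higher (0.63 and 0.80) until scaling, which took away both calls (adjusted p = 0.611 and 0.231).

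Peroxide-removing enzymes also differed by gene and compartment. Gpx2 had 0 and 0.109 TPM in EpiSCs, against 6.85, 6.57 and 4.15 TPM in HFSCs (log2 fold change -2.68, SE 0.40, adjusted p = 0.00138). Prdx6, a peroxiredoxin that also repairs membrane lipids, had 606 and 606 TPM in EpiSCs, against 219.6, 281 and 247 TPM in HFSCs (log2 fold change 1.29, SE 0.15, adjusted p = 0.000489). Gpx2 was at or near 0 in both EpiSC libraries and was tested only because HFSCs express it, so nothing is read from its call. Prdx6 was among the leading members in EpiSCs. The dismutases diverged: Sod2, the mitochondrial manganese enzyme, had 141 and 153 TPM in EpiSCs, against 56.98, 49.99 and 45.4 TPM in HFSCs (log2 fold change 1.52, adjusted p = 0.000620), and Sod1 had 233 and 219.7 TPM in EpiSCs, against 733, 686 and 799.6 TPM in HFSCs (log2 fold change -1.70, adjusted p = 7.00e-05). Of the Sod2 31-base words 26.6% occur in other genes. Gpx8 and Prdx4, which act in the endoplasmic reticulum, and Prdx3, which acts in mitochondria, were lower in EpiSCs, with log2 fold changes of -1.26, -0.92 and -0.94. Gpx1 and Prdx1 were higher (0.47 and 0.60), but neither was called after scaling, where Gpx1 turned to -0.02 (adjusted p = 0.953) and Prdx1 came to 0.11 (adjusted p = 0.752).

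The 2 thioredoxin reductases were exchanged between the cell types. Txnrd1 had 17.03 and 19.7 TPM in EpiSCs, against 3.79, 1.97 and 4.93 TPM in HFSCs (log2 fold change 2.14, SE 0.41, adjusted p = 0.00449). Txnrd2 had 6.73 and 7.59 TPM in EpiSCs, against 15.8, 22.7 and 24.8 TPM in HFSCs (log2 fold change -1.42, SE 0.32, adjusted p = 0.00946). The cytosolic reductase was thus the higher in EpiSCs and the mitochondrial one in HFSCs, and both calls were lost without either EpiSC library (adjusted p = 0.0814 and 0.0928 for Txnrd1, 0.118 and 0.0929 for Txnrd2). Srxn1 had 9.36 and 10.7 TPM in EpiSCs, against 1.49, 3.50 and 1.63 TPM in HFSCs (log2 fold change 1.83, adjusted p = 0.00976; 0.104 and 0.128 without EpiSC library 1 and 2), and Txn1 had 178 and 143 TPM in EpiSCs, against 354, 406 and 319 TPM in HFSCs (log2 fold change -1.16, adjusted p = 0.00144). Beside the members, 8 of 15 tested genes of cystine supply and glutathione breakdown were higher in EpiSCs and 0 lower, beside the 31.5% of all genes that were higher and the 9.1% that were lower, among them the amino acid transporter Slc1a4 (3.09) and the organic anion exporter Abcc4 (3.22), which averaged under 1 TPM in HFSCs and passed the filter only through EpiSCs. Of 17 NRF2 regulators and partners 7 were higher and 0 lower, led by Mafg (3.03) and Mafk (2.90). Of 22 other NRF2 targets 7 were higher, such as Me1 (2.78), and 4 lower, such as Ftl1 (-1.64), with the share of higher genes near that of all genes; after scaling these 3 lists had 6 higher and 1 lower, 5 and 0, and 4 and 9.

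**Figure D4:**
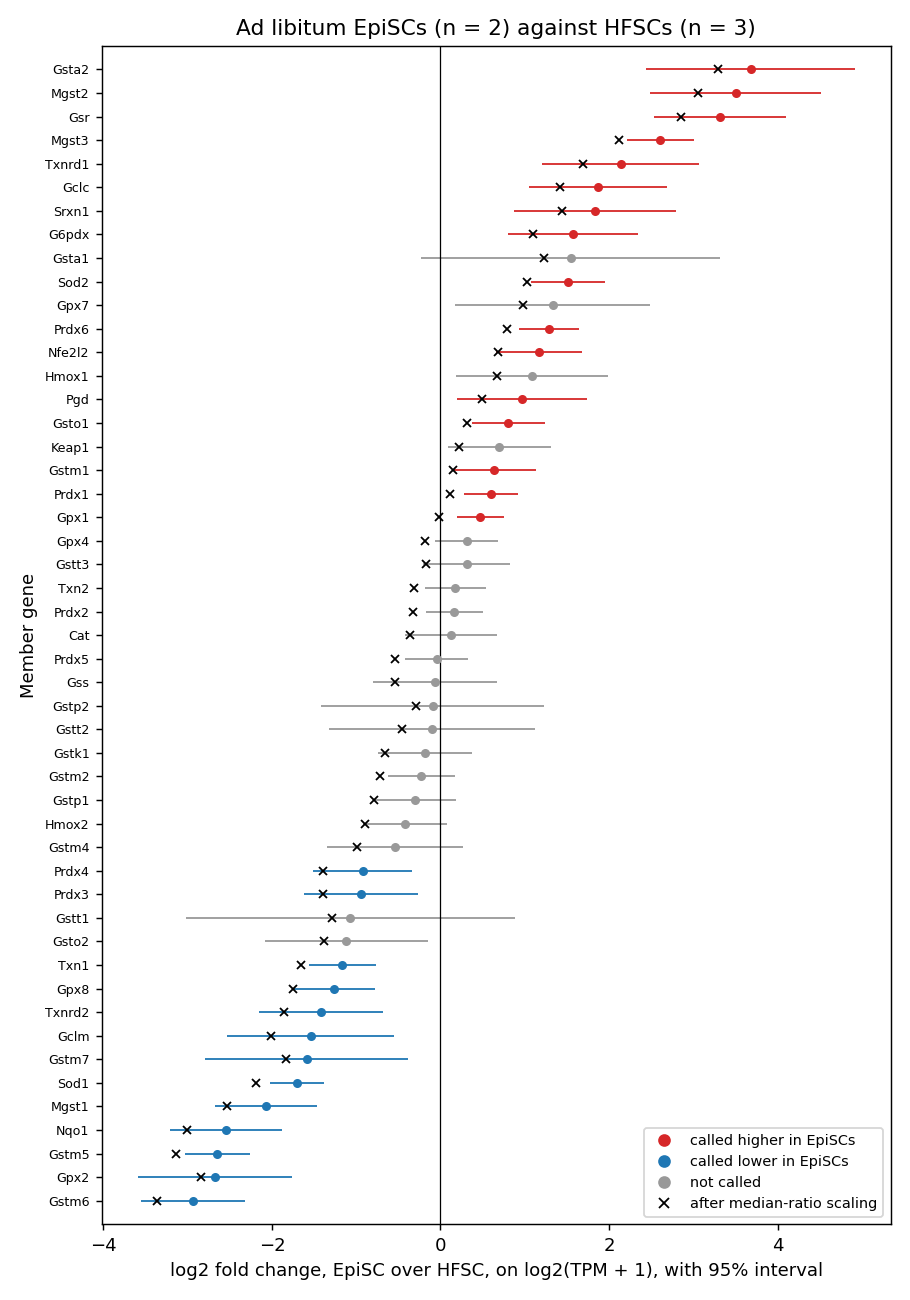
Log2 fold change of each of the 49 members tested, EpiSC over HFSC on the log2(TPM + 1) scale, with its 95% interval, coloured by call; crosses give the value after median-ratio scaling. Transferases lie at both ends, from Gsta2 and Mgst2 at the top to Gstm6 at the bottom, with Gpx2 and Gstm5 next above it, and Gpx1 crosses 0 with scaling.

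The telogen comparison set HFSCs of the 2nd telogen against ad libitum HFSC libraries 2 and 3, the ad libitum libraries held in the same table. Of 48 members tested, 10 were higher and 0 lower in telogen HFSCs, or 20.8%, beside 6.1% of 11618 genes (5.01% higher and 1.09% lower), and the median log2 fold change was 0.46 over the members and 0.03 over all genes. Telogen HFSCs had more of the transferases Gstt1, Gstm1, Gsto1, Mgst1 and Mgst3, more Srxn1, Txnrd2 and Gclc, and more Gpx1 and Sod1. After scaling, 9 were higher and 0 lower, beside 5.75% and 1.74% of genes (7.49% in either direction): Gpx1, Gsto1 and Sod1 lost their calls and Hmox1 and Txnrd1 gained one. The calls rest on few libraries. Leaving out 1 library leaves a single one in its group, which is then assumed to vary like the other pair. No member kept its call in all of these fits, and fewer genes as a whole were called in each of them than in the main fit. With mitochondrially encoded genes removed before the values were rescaled, Gstt1, Gstm1 and Srxn1 kept their calls and the others lost theirs. With genes of any level in the fit no member was called (limma adjusted p = 0.182 for Srxn1), and few genes as a whole were. Per the submitters' processing notes, reads were trimmed with Trimmomatic for the telogen libraries and with fastp for the ad libitum ones, so trimming and stage cannot be told apart.

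Srxn1 gave the smallest adjusted p of the members. It had 30.7 and 26.9 TPM in telogen HFSCs, against 3.50 and 1.63 TPM in ad libitum HFSCs, 11.2 times as much on average (log2 fold change 3.11, SE 0.57, adjusted p = 0.000553; 0.167 and 0.149 without either telogen library). Gstt1 had 20.1 and 37.3 TPM in telogen HFSCs, against 7.92 and 0 TPM in ad libitum HFSCs (log2 fold change 3.25, SE 0.73, adjusted p = 0.00441). Gclc had 66.1 and 13.4 TPM in telogen HFSCs, against 6.13 and 3.84 TPM in ad libitum HFSCs (log2 fold change 2.40, SE 0.61, adjusted p = 0.0130). The telogen libraries of Gclc differ widely from each other, and without telogen library a its log2 fold change was 1.29. None of these genes overlapped between the groups, but with 2 libraries each this was common among the members. Of the 48 tested, 27 were higher in telogen without overlap and 7 were lower, and the share over all genes is not given here. Txnrd2 had 52.6 and 91.8 TPM in telogen HFSCs, against 22.7 and 24.8 TPM in ad libitum HFSCs (log2 fold change 1.51, adjusted p = 0.0200). Mgst1 had 155 and 167 TPM in telogen HFSCs, against 50.8 and 60.8 TPM in ad libitum HFSCs (log2 fold change 1.52, adjusted p = 0.00402), and Mgst3 had 116 and 147 TPM in telogen HFSCs, against 53.96 and 46.7 TPM in ad libitum HFSCs (1.359, adjusted p = 0.0137). Srxn1 and Mgst1 are among the members whose printed promoter window holds the ARE core, and Gstm1, with 267 and 293 TPM in telogen HFSCs against 119.8 and 77.5 TPM in ad libitum HFSCs (1.53, adjusted p = 0.00251), is among those whose window does not.

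The 2 leading members of the family as a whole were also higher in telogen. Gpx1 had 3169.5 and 3759 TPM in telogen HFSCs, against 1409 and 1459 TPM in ad libitum HFSCs (log2 fold change 1.27, SE 0.28, adjusted p = 0.00355; after scaling 1.28, adjusted p = 0.198). Sod1 had 1252 and 1778 TPM in telogen HFSCs, against 686 and 799.6 TPM in ad libitum HFSCs (log2 fold change 1.01, adjusted p = 0.0294; after scaling 1.02, adjusted p = 0.266). Gsto1 had 491 and 435 TPM in telogen HFSCs, against 219 and 203 TPM in ad libitum HFSCs (log2 fold change 1.13, adjusted p = 0.0154; after scaling 1.14, adjusted p = 0.0857). Median-ratio scaling changed the size of these 3 differences little and took away their calls. With mitochondrially encoded genes removed, the differences shrank and were not called either. The log2 fold changes of Gpx1, Sod1 and Gsto1 were then 0.82, 0.56 and 0.68 (limma adjusted p = 0.0945, 0.262 and 0.169). Nfe2l2 was not called, with 71.3 and 40.8 TPM in telogen HFSCs and 33.1 and 28.9 TPM in ad libitum HFSCs (adjusted p = 0.351), nor was Nqo1, with 90.5 and 52.1 and 106 and 78.4 TPM in the same order (adjusted p = 0.685). Of 18 NRF2 regulators and partners 4 were higher in telogen, among them Mafk (2.74), Maff (2.59) and Sqstm1 (1.10, not called after scaling, adjusted p = 0.0839). Of 23 other NRF2 targets 1 was higher, Osgin1 (2.89), and both counts stand beside 5.01% of all genes higher. Markers of blood cells moved with the telogen group: the 6 erythroid markers summed to 92.2 to 163 TPM in telogen HFSCs, against 5.26 to 34.4 TPM in ad libitum HFSCs, and the 8 immune markers summed to 58.4 to 63.8 TPM, against 13.1 to 16.4 TPM, with Ptprc and Cd3e at 0 in both. Their part in the result was not tested.

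**Figure D5:**
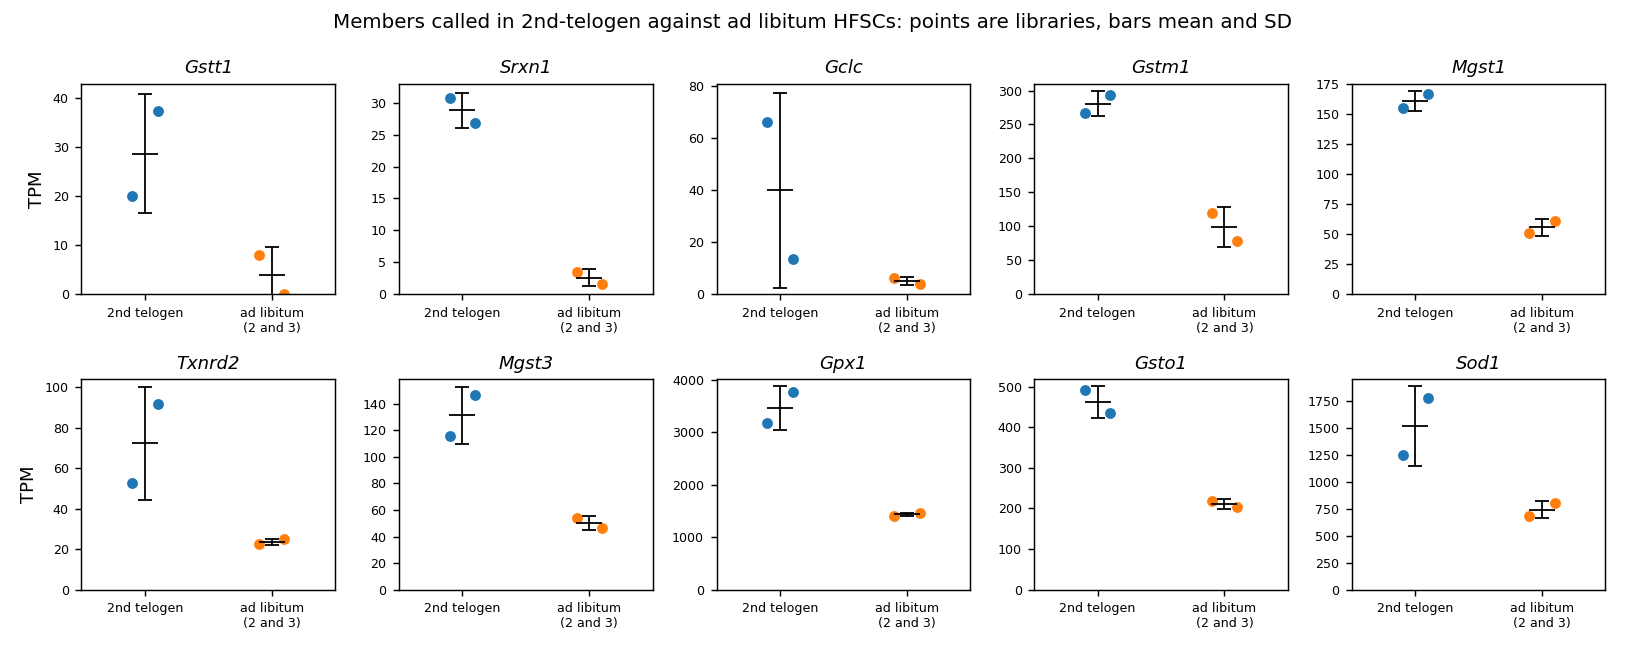
TPM of the 10 members called in 2nd-telogen against ad libitum HFSCs. Each point is 1 library and the bars show mean and SD (n = 2 each; ad libitum libraries 2 and 3). In all 10 panels both telogen points lie above both ad libitum points, and the telogen pair of Gclc is the most spread relative to its mean.

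The long-term comparison asked whether 6 months of ADF left a difference in HFSCs. None of the 51 members tested was called by limma, beside 0.00822% of 12162 genes, and 7 members (13.7%) had an unadjusted p under 0.05, beside 14.1% of genes. With 2 libraries a group the intervals are wide, so this does not show that the regimens were alike. Prdx4, a peroxiredoxin of the endoplasmic reticulum, had 60.9 and 69.6 TPM in ADF HFSCs, against 28.1 and 30.9 TPM in ad libitum HFSCs (log2 fold change 1.12, 95% interval 0.55 to 1.68, adjusted p = 0.244). Gstm4 had 23.6 and 29.5 TPM in ADF HFSCs, against 1.74 and 9.10 TPM in ad libitum HFSCs (log2 fold change 2.38, adjusted p = 0.258). Srxn1 had 29.2 and 32.004 TPM in ADF HFSCs, against 50.8 and 47.7 TPM in ad libitum HFSCs (log2 fold change -0.67, adjusted p = 0.314). The other 4 with an unadjusted p under 0.05 were Keap1 (0.67), Prdx2 (0.73), Gpx8 (-0.60) and Sod1 (0.79). Lack of overlap between the regimens sets none of these genes apart. Of the 51 members, 17 were higher in ADF HFSCs without overlap and 10 were lower, and the share over all genes is not given here. Of the genes called after 48 h of fasting, Nfe2l2 had 83.3 and 68.5 TPM in ADF HFSCs and 69.3 and 73.7 TPM in ad libitum HFSCs (95% interval of the log2 fold change -0.45 to 0.61), and Gstm1 had 526 and 406 and 347 and 356 TPM in the same order (-0.12 to 0.90), which did not overlap. Gpx2 had 18.9 and 16.7 TPM in ADF HFSCs and 6.99 and 11.99 TPM in ad libitum HFSCs (-0.01 to 1.77), and Txnrd2 averaged 42.7 ± 20.4 and 70.4 ± 31.1 TPM in the same order (SD, n = 2 each; -1.73 to 0.29). Of the other lists of antioxidant, NADPH and selenium genes, 0 genes were called in this comparison.

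Among the HFSC groups, several members were lower in the 3 short-experiment groups, fed or fasted, than in the telogen and long-term groups. This is a description only, since the long-term table was made apart from the others and no test was run across tables. Srxn1 averaged 28.8 TPM in telogen HFSCs, 30.6 and 49.3 TPM in long-term ADF and ad libitum HFSCs, 10.02 TPM in EpiSCs, and 2.21, 4.005 and 6.70 TPM in short-experiment HFSCs that were fed, fasted for 24 h and fasted for 48 h. Txnrd1 was likewise low in the short-experiment HFSCs, with 45.8 and 32.6 TPM in long-term ADF and ad libitum HFSCs, 18.3 TPM in EpiSCs and 13.2 TPM in telogen HFSCs, against 5.15 TPM or less in the 3 short-experiment HFSC groups. Mgst1 averaged 244 and 228 TPM in the long-term ADF and ad libitum groups and 161 TPM in telogen HFSCs, between 45.2 and 58 TPM in short-experiment HFSCs, and 11.2 TPM in EpiSCs. Libraries of these sets differ in the mitochondrial share too, at 3.88% or less in the long-term, telogen and EpiSC group means and 10.02% or more in the short-experiment HFSC group means, and, per the submitters' processing notes, in the trimming tool, which was Trimmomatic for telogen and long-term libraries and fastp for all others. Cell state and preparation cannot be told apart across these sets.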

How the data were processed

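The deposited values are TPM per gene, in 3 tables of 35674 symbols each. Per the labels' protocols, RNA of sorted cells was isolated with a column kit for small samples, amplified as full-length cDNA and made into libraries with a transposase kit. Per the submitters' processing notes, the tools were Trimmomatic 0.39 (telogen and long-term libraries) or fastp 0.23.1 (all others), Salmon 1.4.0 and DESeq2 1.36.0, and the genome was mm10. TPM keep no read depth, so the depth per library is unknown and no counting interval is given. The telogen table's ad libitum columns were identical to libraries 2 and 3 within 1e-06 TPM in all 35674 genes and were counted once. Its 2 telogen columns could not be tied to replicate numbers and are given in column order as libraries a and b. EpiSC titles number the libraries 1 and 2 but their descriptions and columns 2 and 3; the titles were followed, and the EpiSC replicate block rests on that choice.

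Tests were run within each table on log2(TPM + 1) by limma (version 3.58.1, R 4.3.3), over genes with a mean of at least 1 TPM in the libraries of the fit, with Benjamini-Hochberg adjustment over all genes tested and a threshold of 0.05. Fold changes are on that scale and understate the change of low genes. The 3 short-experiment HFSC groups shared 1 fit; the EpiSC, telogen and long-term comparisons had their own. Alternatives were a pseudocount of 0.1, no filter, median-ratio scaling, removal of mitochondrially encoded genes, a replicate block (in the telogen comparison on column numbers, added after the data were seen) and each library left out in turn. The scripts were tested on simulated data. Members, gene lists and markers were chosen with earlier results of these data known. All members are accounted for; those described in full are the members called in any comparison (the 10 with the widest change where over 25 were called), the leader of each family, and Nfe2l2, Keap1, Gclc, Gclm, Nqo1 and Hmox1; others were named after their values were seen. Positions are from GENCODE vM21 on GRCm38 and promoters from RefSeq. Shared 31-base words were counted between the annotated transcripts of different genes. EpiSCs after fasting were not analysed here, and values of some genes outside the rule are not reported here.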

Additional observations from a re-analysis of the deposited data

How the results depend on the processing

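Without the filter on low values, 0 members were higher and 0 lower at 24 h (61 genes in all), 5 were higher at 48 h (918 genes), and 0 were called in telogen (4 genes); the 48 h against 24 h and long-term comparisons then had 0 genes. Median-ratio scaling gave 4 members higher at 24 h (562 genes), 7 lower at 48 h and 0 genes at 48 h against 24 h. Removing mitochondrially encoded genes gave 567 genes at 24 h, 7 members lower at 48 h, 0 genes at 48 h against 24 h and 3 members higher in telogen. A pseudocount of 0.1 gave 1 member higher at 24 h and 1 gene at 48 h against 24 h. The EpiSC log2 fold change of Gpx1 was -0.0196 with scaling and -0.00976 without mitochondrially encoded genes. Beyond the construction of each alternative, the cause was not tested.

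Leaving out 1 library at a time, members called ranged from 0 to 4 higher and 0 to 8 lower at 24 h (99 to 489 genes), from 5 to 9 higher and 3 to 4 lower at 48 h (744 to 2448), from 0 to 4 higher at 48 h against 24 h (0 to 345), from 5 to 17 higher and 7 to 13 lower in EpiSCs (1253 to 5610), from 0 to 4 higher in telogen (29 to 553), and stayed at 0 in the long-term comparison (0 to 16 genes). Of uncalled values, 101 of 2225 changed sign under an alternative.

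The replicate numbers share only a number: libraries with the same title number had deviations from their group means that correlated across genes at -0.133 to 0.0469. With a replicate block, 1 member was higher at 24 h. Gclc was lost there (limma adjusted p = 0.0653), as was Gstm6 among the lower (0.0523). At 48 h against 24 h 1 was higher, Gpx3 (19 genes in all). Nothing is read from it, as it passed the filter only through the 48 h libraries. In the long-term comparison 1 was higher (284 genes). EpiSCs lost Gstm1 and Prdx3 and gained Gpx7, Gsta1, Keap1, Gstp1 and Gstt1, for 18 higher and 14 lower. The telogen columns end in the numbers 2 and 3, as do the ad libitum ones, which correlated at 0.106; a replicate block on these, chosen after seeing the data, kept all 10 calls and added Gclm, Gpx4, Hmox1 and Txnrd1 (1287 genes in all). The unknown depth limits the members under 1 TPM most, and libraries listed at 0 say only that a gene is listed at 0.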

Other observations

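Of 12 tested sources of reactive oxygen, 4 were lower in EpiSCs: Cyba, a membrane subunit of NADPH oxidases, averaged 0.548 ± 0.0249 TPM in EpiSCs and 74.4 ± 16.4 TPM in HFSCs (log2 fold change -5.58, limma adjusted p = 1.01e-05), Noxo1, an oxidase organiser, averaged 0.732 ± 0.420 and 24.7 ± 6.10 TPM in the same order, and Duoxa1 and its partner oxidase Duox1 had log2 fold changes of -3.51 and -2.43. Cyba and Noxo1, and Selenom below, averaged under 1 TPM in EpiSCs and passed the filter only through HFSCs, and Maob passed it only through EpiSCs, so these genes could enter only by differing and nothing is read from their calls. The EpiSC counts of all lists here stand beside 31.5% of genes higher and 9.1% lower. Those at 48 h of fasting stand beside 13.3% and 1.98%, those at 24 h beside 1.47% and 1.6%, and those in telogen beside 5.01% and 1.09%. The 3 that were higher in EpiSCs were Maob, Ero1l and Maoa (3.17, 1.94 and 1.364; Maoa was not called after scaling, adjusted p = 0.0670). Noxo1 was also lower after 48 h of fasting (-3.09), where Ero1l, an oxidase of the endoplasmic reticulum, was higher (1.28; 0.86 after scaling, adjusted p = 0.173). Of 19 tested selenoprotein genes, 5 were higher and 2 lower in EpiSCs (2 and 5 after scaling), with Selenom, a selenoprotein of the endoplasmic reticulum, at 0.875 ± 0.0567 TPM in EpiSCs and 188 ± 20.4 TPM in HFSCs (-6.65). At 48 h of fasting, Selenop, the secreted selenium carrier, and Sephs2, which activates selenium, rose (2.12 and 1.52; Sephs2 was not called after scaling, adjusted p = 0.164) and Selenom fell (-1.21), and Selenop had risen at 24 h (2.01). In telogen 2 of 19 were higher, Sephs2 and Selenok (2.00 and 1.20; Selenok was not called after scaling, adjusted p = 0.104).

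Of 13 genes of NADPH supply outside the rule, 2 were higher at 48 h of fasting, the mitochondrial Idh2 (1.39) and Me3 (1.04; not called after scaling, adjusted p = 0.123), and 0 were called at 24 h or in telogen (1 higher in telogen after scaling). In EpiSCs 4 of them were higher (2 after scaling, where Nadk and Pgls were not called, adjusted p = 0.151 and 0.497) and 1 lower, Me3, at 1.08 ± 0.595 TPM in EpiSCs and 34.7 ± 7.28 TPM in HFSCs. Related glutathione enzymes had 2 of 11 higher at 48 h (Aifm2 at 1.93 and Pon2 at 1.09, the second not called after scaling, adjusted p = 0.0680), 0 at 24 h and in telogen, and 4 of 12 higher and 1 lower in EpiSCs (3 and 2 after scaling, where Glo1 was not called, adjusted p = 0.314), led by Ptges (3.21). Of 20 thioredoxin and glutaredoxin partners, 6 were higher and 1 lower in EpiSCs (1 and 3 after scaling), and in telogen 1 was higher, Sesn2 (2.19), and 1 lower, Txnip (-1.40).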
